A study of Homo sapiens with 8 samples.

Results

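The S100 genes encode small calcium-binding proteins, and 8 of them were measured among the 12939 genes of RNA-Seq data from breast cancer stem cells (CSCs). They were S100A2, S100A3, S100A4, S100A6, S100A10, S100A11, S100A13 and S100A16. A ninth listed gene, S100A14, was not analysed here, and neither were any of 12 further S100 genes that were looked up. The set was selected on the level of S100A4, which was known to be much lower in the CDH2 knockdown than in scramble cells. The members were thus chosen by the comparison of CDH2 knockdown with scramble, and their values in it are given as a description without a test. Where the threshold defined below is applied to them in it, this only sorts them and tests nothing.

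The cells were CSCs from MDA-MB-231, an established triple-negative breast cancer cell line, and every group carried a stably transfected GFP reporter under the Oct4a regulatory region and a stably transfected RFP vector with an shRNA. The shRNA was against CDH2 (N-cadherin, an adhesion protein), against Cx43 (connexin 43, a gap junction protein) or scramble, a sequence without a target that served as the control. CSCs were sorted by high GFP and RFP and left overnight before total RNA was taken. The data hold 3 scramble libraries, 3 CDH2 knockdown libraries and 2 Cx43 knockdown libraries. The CDH2 knockdown line was 1 selected clone, so differences of that group cannot be told apart from those of the clone. The labels do not say that the libraries of a group came from separate cultures, so p-values measure the spread between these libraries, which may be technical. Transcripts of CDH2 and of GJA1, the gene of Cx43, were not analysed here, and the knockdown of the targets themselves was not checked.

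S100 proteins form dimers in which each chain carries a pair of EF hands, the helix-loop-helix folds that hold calcium. They are not enzymes. Most of them change shape when calcium binds and then attach to target proteins such as annexins or non-muscle myosin, and some are also secreted and signal through receptors such as RAGE. Most S100 genes lie together in the 1q21 region of chromosome 1. S100A4 is best known for promoting the spread of tumours, including breast tumours. Bulk RNA was measured, in which fewer cells of a kind and less RNA per cell cannot be told apart.

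Because the S100A4 difference is one of transcript level, the 250 bases before the start of the genes that differed most in CDH2 knockdown are shown first, and those of S100A16, which had the smallest difference in Cx43 knockdown, beside them. The sequences are from RefSeq on GRCh38.p14, where all 8 genes had a window at the start of their GENCODE v44 canonical transcript, all on the minus strand. They are written 5′ to 3′ in the sense of the gene. RefSeq holds 3 windows for S100A13 and 2 each for S100A2 and S100A16, and only the one at the canonical start was searched. Capitals mark matches to 4 motifs. The TATA box was searched as TATAAA. The E-box bound by SNAI and ZEB repressors was searched as CACCTG. The site of AP-1 factors was searched as TGANTCA, and the GC box of SP1-like factors as GGGCGG. Both strands were searched, so the reverse complement of each motif was marked as well.
S100A4, chr1:153545807-153546056: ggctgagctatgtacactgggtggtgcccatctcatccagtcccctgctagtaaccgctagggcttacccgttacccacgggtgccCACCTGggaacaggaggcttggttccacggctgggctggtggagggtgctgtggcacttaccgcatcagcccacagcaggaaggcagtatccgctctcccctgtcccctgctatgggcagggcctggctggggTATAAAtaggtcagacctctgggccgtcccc
S100A2, chr1:153565845-153566094: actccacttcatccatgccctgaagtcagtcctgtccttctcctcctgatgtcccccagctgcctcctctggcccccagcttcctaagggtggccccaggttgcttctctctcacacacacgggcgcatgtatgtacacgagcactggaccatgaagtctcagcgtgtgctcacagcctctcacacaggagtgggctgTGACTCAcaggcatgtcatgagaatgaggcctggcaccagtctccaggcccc
S100A13, chr1:153627506-153627755: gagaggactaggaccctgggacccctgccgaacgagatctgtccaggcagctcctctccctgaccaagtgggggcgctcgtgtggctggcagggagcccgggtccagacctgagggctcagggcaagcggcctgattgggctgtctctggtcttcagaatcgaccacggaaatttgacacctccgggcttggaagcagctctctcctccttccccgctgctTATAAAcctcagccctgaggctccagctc
S100A6, chr1:153535992-153536241: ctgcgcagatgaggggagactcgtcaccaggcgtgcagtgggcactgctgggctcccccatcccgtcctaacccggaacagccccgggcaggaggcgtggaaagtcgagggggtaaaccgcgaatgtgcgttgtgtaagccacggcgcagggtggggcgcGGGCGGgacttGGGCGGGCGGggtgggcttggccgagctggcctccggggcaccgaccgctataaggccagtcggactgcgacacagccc
S100A16, chr1:153613138-153613387: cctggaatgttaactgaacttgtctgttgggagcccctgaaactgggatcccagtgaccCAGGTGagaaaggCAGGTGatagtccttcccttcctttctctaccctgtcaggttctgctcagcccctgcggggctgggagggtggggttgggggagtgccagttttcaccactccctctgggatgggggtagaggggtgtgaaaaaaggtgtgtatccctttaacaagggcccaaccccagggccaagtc

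The S100A4 window holds TATAAA with its first letter 31 bases before the start, and CACCTG 164 bases before it. S100A13 was the only other member with TATAAA, 29 bases before its start, while 10.8% of the 34943 windows of the same length in the RefSeq table hold these letters on either strand. S100A16 was the only other member with the E-box letters, which it holds at 191 and 178 bases before its start, against 17.5% of all windows. S100A2 holds the AP-1 letters 52 bases before its start and S100A3 holds them at 225 bases, against 6.6% of all windows. GC boxes were found in S100A3, S100A6, S100A10 and S100A11, against 42.5% of all windows, and S100A6 has 3 of them, of which those at 79 and 75 bases before the start overlap. GGAAA, the core bound by NFAT factors and not marked above, was found in S100A3, S100A6, S100A11 and S100A13, against 55.7% of all windows. No motif searched was shared by S100A4, S100A2, S100A6 and S100A13, the 4 members with the largest differences. A match says only that these letters stand in the window.

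All 8 genes have 3 exons and short transcripts, from 434 bases in S100A6 to 1172 bases in S100A16. To order genes by their level, the deposited values were turned back to CPM, read counts scaled to a common library total, and divided by transcript length in kilobases (kb). In the scramble libraries S100A6 had the highest level, at 871 to 958 CPM per kb, followed by S100A10 at 429 to 438 and S100A11 at 206 to 237. S100A13 (104 to 116) and S100A16 (77.9 to 98.8) came next, and S100A4 (43.8 to 44.9), S100A2 (21 to 23.5) and S100A3 (11.1 to 13.2 CPM per kb) were the lowest. No neighbours in this order overlapped in the scramble libraries. The order was not the same in the knockdowns. In the CDH2 knockdown S100A16 (60.3 to 78.5 CPM per kb) stood above S100A13 (52.2 to 59.5). In the Cx43 knockdown the ranges of S100A13 (83.7 to 88.0) and S100A16 (84.9 to 89.5) overlapped, as did those of S100A4 (15.5 to 20.8) and S100A2 (15.3 to 15.8 CPM per kb). S100A4 thus had 2.23% of the summed CPM of the 8 genes in scramble cells, where S100A6 had 38.8% and S100A10 28.5%. The summed CPM of the 8 genes was 1013.9 to 1030.6 in scramble, 810.3 to 893.7 in Cx43 knockdown and 620.9 to 691.2 in CDH2 knockdown libraries. The 3 groups did not overlap in this sum.

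S100A4, also called metastasin, binds non-muscle myosin IIA and acts on cell movement. Its level was 4.59, 4.55 and 4.58 in scramble replicates 1, 2 and 3 on the log2(CPM + 1) scale, on which all further levels and differences are given. It was 3.25, 2.89 and 3.06 in the CDH2 knockdown and 3.16 and 3.55 in the Cx43 knockdown. All 5 knockdown libraries lay below all scramble libraries, and those of the 2 knockdowns overlapped each other. The means were 4.57 ± 0.02 (SD, n = 3), 3.07 ± 0.18 (SD, n = 3) and 3.35 ± 0.27 (SD, n = 2). The difference between CDH2 knockdown and scramble was -1.51, a 2.84-fold lower level, which ranked 6 from the lowest of the 12939 genes.

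In the Cx43 knockdown S100A4 fell by 1.22 (SE 0.17, 95% interval -1.63 to -0.80), or 2.33-fold, with an adjusted p of 0.0417 in limma. This comparison shares its scramble libraries with the comparison that chose the gene. To be past threshold, a gene needed an adjusted p below 0.05 and at least a 1.5-fold change, or a 1.66-fold change for CDH2 knockdown versus scramble. In Cx43 knockdown versus scramble 1.18% of all genes were past threshold, 0.781% as lower, and S100A4 was the only one of the 8 S100 genes. The adjusted p rose past 0.05 without CDH2 replicate 1 (0.0595), CDH2 replicate 2 (0.0673), Cx43 replicate 1 (0.244), Cx43 replicate 2 (0.296) or scramble replicate 1 (0.153), and with only the 75% of genes with the highest mean (0.0594). With 2 residual degrees of freedom, the number of directions in which the residuals vary, the SE was 0.20 and the adjusted p 0.0358. Over these and all other alternatives the difference ranged from -1.51 to -0.93.

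Between the knockdowns, S100A4 was 0.29 lower in CDH2 than in Cx43 cells (SE 0.17, 95% interval -0.70 to 0.13), given as a description. The same-numbered libraries differed by 0.09 in replicate 1 and by -0.66 in replicate 2. Without Cx43 replicate 2 the difference was 0.00.

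**Figure D1:**
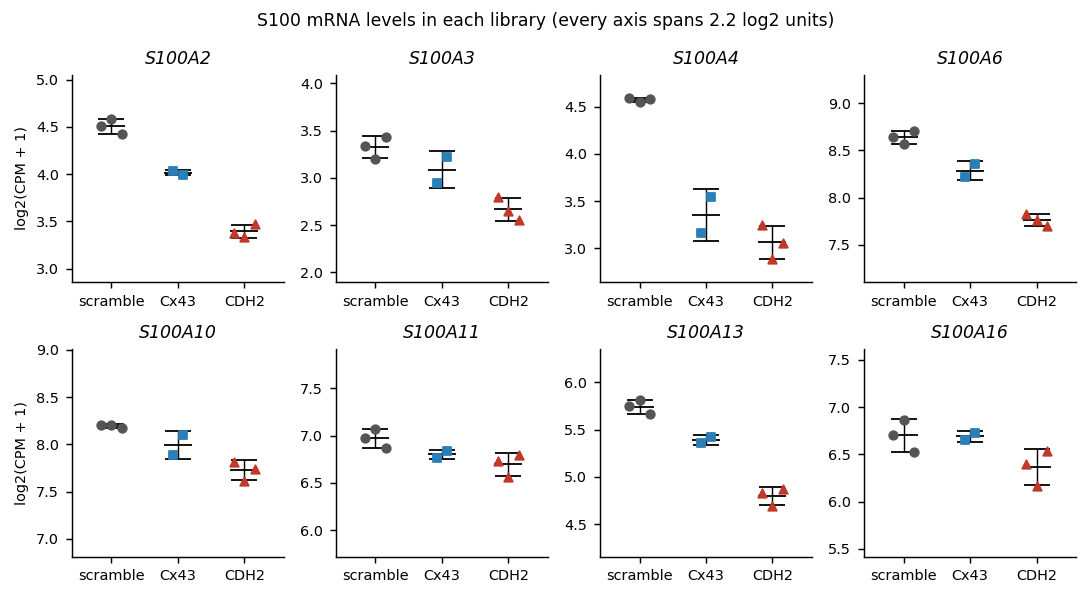
Levels of the 8 S100 genes on the log2(CPM + 1) scale, with 1 point per library and, in black, the mean and SD of each group (scramble n = 3, Cx43 knockdown n = 2, CDH2 knockdown n = 3). S100A4 lay at 4.55 to 4.59 in scramble libraries and at 2.89 to 3.55 in all knockdown libraries, while S100A2, S100A6, S100A10 and S100A13 had Cx43 libraries between those of CDH2 knockdown and scramble.

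The 5 genes whose pattern over the 8 libraries was most like that of S100A4 were MMP11, AC089983.1, KRT86, CLIC3 and DNAJC22. Likeness was measured as the root mean square difference of the values after each gene was centred on its own mean, and it was 0.215, 0.216, 0.229, 0.234 and 0.238 for these genes. Among the S100 genes, S100A2 was the most like S100A4, at 0.322 and rank 42 of all other genes. S100A13 (0.368, rank 94), S100A6 (0.378, rank 108) and S100A3 (0.448, rank 286) followed, while S100A11 had rank 1690 and S100A16 rank 2085. The 5 outside genes were picked for likeness to S100A4, so their lower means in both knockdowns follow from the pick. Likeness over the 8 libraries includes those that chose the members, so the ranks of the S100 genes are only a description. MMP11, a secreted metalloproteinase, had means of 2.46, 1.27 and 1.72 in scramble, CDH2 knockdown and Cx43 knockdown.

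S100A2, which is known from epithelia, was at 4.50, 4.58 and 4.43 in scramble, 4.04 and 3.99 in Cx43 knockdown and 3.38, 3.34 and 3.47 in CDH2 knockdown libraries. The 3 groups did not overlap, and the Cx43 libraries stood between the others. S100A2 was 1.11 lower in CDH2 knockdown than in scramble, or 2.16-fold. In Cx43 knockdown it was 0.49 lower than in scramble (SE 0.10, adjusted p = 0.0849 in limma). In CDH2 knockdown it was 0.62 lower than in Cx43 knockdown (SE 0.10, adjusted p = 0.115). The CDH2 knockdown libraries chose the members, so the second value only describes S100A2. With 2 residual degrees of freedom the adjusted p-values were 0.289 and 0.312.

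S100A6, or calcyclin, which binds the ubiquitin ligase component CACYBP, was at 8.64, 8.57 and 8.70 in scramble, 8.22 and 8.36 in Cx43 knockdown and 7.83, 7.77 and 7.70 in CDH2 knockdown. S100A13, which takes part in the export of the growth factor FGF1, was at 5.75, 5.82 and 5.67, at 5.35 and 5.43, and at 4.83, 4.69 and 4.88 in the same groups. Both genes had the order CDH2 knockdown, Cx43 knockdown, scramble without overlap. In CDH2 knockdown S100A6 was 0.87 and S100A13 0.94 lower than in scramble. In Cx43 knockdown they were 0.35 (SE 0.11, adjusted p = 0.147) and 0.35 (SE 0.11, adjusted p = 0.15) lower. S100A13 shares 225 of the 477 bases of its exons with ENSG00000271853 on the same strand, a gene not analysed here, so reads of the 2 genes could be split between them.

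S100A10, S100A11 and S100A16 are broadly expressed members. S100A10 binds annexin A2 at the cell surface, where the complex helps to turn plasminogen into plasmin, and it does so without binding calcium. It was at 8.20, 8.21 and 8.17 in scramble, 7.89 and 8.10 in Cx43 knockdown and 7.82, 7.61 and 7.74 in CDH2 knockdown, again without overlap between the groups. S100A11, a partner of annexin A1, was at 6.98, 7.07 and 6.87 in scramble, 6.77 and 6.84 in Cx43 knockdown and 6.73, 6.56 and 6.80 in CDH2 knockdown, where the 2 knockdowns overlapped. S100A16 was at 6.71, 6.87 and 6.53 in scramble, 6.65 and 6.73 in Cx43 knockdown and 6.40, 6.16 and 6.54 in CDH2 knockdown, and was the only member whose CDH2 knockdown libraries overlapped those of scramble. The differences between CDH2 knockdown and scramble were -0.47 for S100A10, -0.28 for S100A11 and -0.33 for S100A16. In Cx43 knockdown they were -0.20 (adjusted p = 0.375), -0.17 (adjusted p = 0.462) and -0.01 (adjusted p = 0.977) in limma. The 95% interval for S100A16 in Cx43 knockdown, -0.42 to 0.40, spans changes in either direction.

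S100A3, known from the hair cuticle, had the lowest level per length. It was at 3.34, 3.21 and 3.44 in scramble, 2.95 and 3.23 in Cx43 knockdown and 2.80, 2.65 and 2.56 in CDH2 knockdown. Its CDH2 knockdown libraries lay below all others, while Cx43 replicate 2 overlapped the scramble range. It was 0.66 lower in CDH2 knockdown than in scramble and stood just outside the threshold of 0.73 for the fold change, with S100A6 at 0.87 just inside. It was past threshold with a pseudocount of 0.1 (-0.743) and without scramble replicate 2 (-0.754). In Cx43 knockdown it was 0.24 lower (SE 0.15, adjusted p = 0.395).

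As a group, 4 of the 8 members, S100A2, S100A4, S100A6 and S100A13, passed the threshold as lower in CDH2 cells than in scramble cells. Over all genes 2.06% were past threshold, 1.20% as lower. Since this comparison chose the members, the threshold only sorts them here, and nothing is read from these shares. The median difference of the 8 genes was -0.77, beside 0.01 over all genes. The count of 4 was 0 without CDH2 replicate 1, CDH2 replicate 2, Cx43 replicate 1 or Cx43 replicate 2, where no gene at all was past threshold, 1 (S100A4) without scramble replicate 1, and 5, with S100A3 added, without scramble replicate 2. All 8 genes had lower means in CDH2 knockdown than in scramble, beside 49% of all genes. S100A11 moved to 0.02 higher when the values were corrected for transcript length and GC content. The CDH2 knockdown libraries all lay below the scramble libraries in 7 of 8 members and in 24.8% of all genes, again only a description.

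In Cx43 knockdown versus scramble the median difference of the 8 genes was -0.30, beside 0.04 over all genes. All Cx43 libraries lay below all scramble libraries in 6 of 8 members, beside 21.4% of all genes. The same scramble libraries enter this and the preceding count. All 8 means were below those of scramble, beside 42.4% of all genes, although S100A16 turned to 0.06 with the length and GC correction.

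Between CDH2 and Cx43 knockdown no gene was past threshold, so the share of all genes was 0%, although 2591 genes and 4 members had an unadjusted p under 0.05 in limma. The members were S100A2, S100A3, S100A6 and S100A13, with adjusted p-values of 0.115, 0.207, 0.124 and 0.124 and differences of -0.62, -0.42, -0.52 and -0.59. With 2 residual degrees of freedom 1338 genes had an unadjusted p under 0.05, and S100A3 had 0.0501. The adjusted p-values of these members were then 0.312, 0.481, 0.384 and 0.335. The median difference of the 8 genes was -0.37, beside -0.03 over all genes, and all CDH2 libraries lay below all Cx43 libraries in 6 members, beside 29.1% of all genes. Without the replicate number as a block in the model 360 genes were past threshold, S100A2 (adjusted p = 0.00272) and S100A13 (adjusted p = 0.00397) among them. Both genes were also past threshold without CDH2 replicate 3, scramble replicate 2 or scramble replicate 3, with adjusted p-values of 0.00542, 0.0135 and 0.00542 for S100A2. The fits without CDH2 replicate 3 and without scramble replicate 3 are the same, here and below, and count as 1 alternative. In each the block takes up the library of that number that is left. In the full order all CDH2 libraries lie below all Cx43 libraries and these below all scramble libraries. It was found in S100A2, S100A6, S100A10 and S100A13, 4 of 8 members, beside 4.75% of all genes. The p-values of the members here, this order and the count of 6 use the CDH2 knockdown libraries that chose the members. They are a description, and nothing is read from them.

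**Figure D2:**
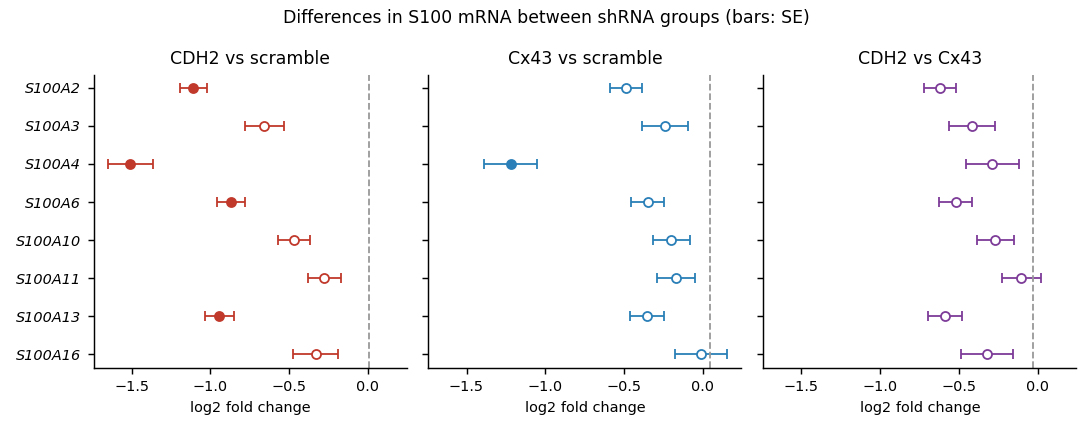
Log2 fold changes of the 8 S100 genes in the 3 comparisons, with bars for the SE. Filled points are past threshold, and the dashed line is the median of all genes (0.01, 0.04 and -0.03). In CDH2 knockdown versus scramble, which chose the members, the filling only describes them. S100A4 had the lowest value in both comparisons with scramble (-1.51 and -1.22), but lay at -0.29 between the knockdowns, where S100A2 was lowest at -0.62.

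Transcript length moved with the difference between CDH2 knockdown and scramble over all genes. Lengths were matched for 91.9% of the gene symbols. The 990 genes with transcripts under 1000 bases, which include 7 of the 8 S100 genes, had a median of -0.26, and 84.0% of them were below 0. The 10898 longer genes had a median of 0.03. In Cx43 knockdown versus scramble the medians of short and longer genes were -0.03 and 0.05, and between the knockdowns they were -0.24 and -0.01. Among the short genes in CDH2 knockdown versus scramble, S100A4 stood at percentile 0.202, S100A2 at 0.606, S100A13 at 1.11 and S100A6 at 1.72. S100A10 stood at 19.9 and S100A11 at 47.2. These percentiles only describe the comparison that chose the members. In Cx43 knockdown S100A4 stood at percentile 0.404 among the short genes.

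After each library was corrected for transcript length and GC content, an analysis added after the values had been seen, the differences in CDH2 knockdown versus scramble, again a description of the comparison that chose the members, were -1.23 for S100A4 and -0.87 for S100A2. S100A6 and S100A13 then had -0.55 and -0.63, smaller than the fold change required, and S100A3, S100A10, S100A11 and S100A16 had -0.33, -0.25, 0.02 and -0.07. The median of the 8 genes was -0.44. In Cx43 knockdown S100A4 fell by 1.18 (adjusted p = 0.0398 in limma), and S100A2 had -0.45 (adjusted p = 0.0391), which was short of the fold change required. Between the knockdowns S100A2 and S100A13 had -0.43 and -0.34, and S100A11 changed sign to 0.14.

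**Figure D3:**
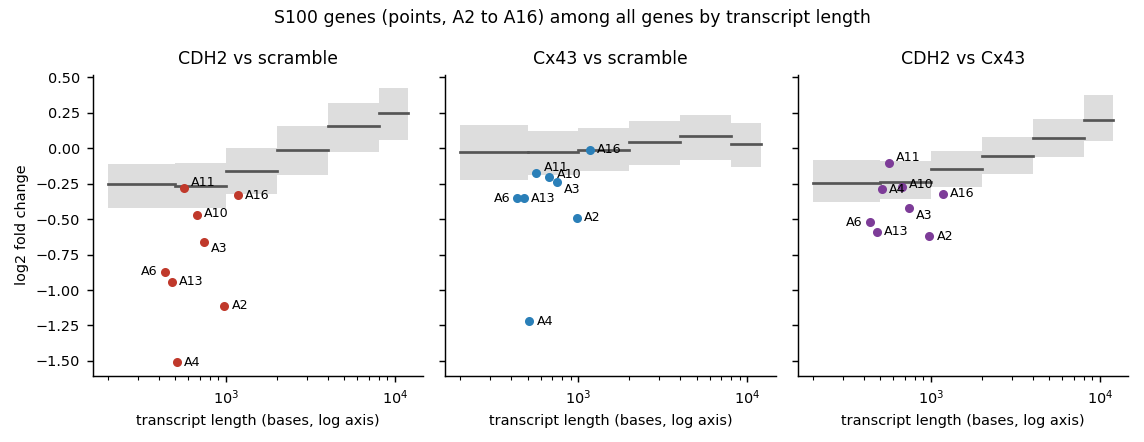
Log2 fold changes of the 8 S100 genes (points, named without the prefix S100) against transcript length on a log axis, in the 3 comparisons. Dark lines are medians and grey bands the quartiles of all genes in bins of length; in CDH2 knockdown versus scramble the median was -0.25 in genes under 500 bases and 0.25 in genes of 8000 bases or more.

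The S100 genes lie in a row on 1q21, and their neighbours on the chromosome were measured too. From the start of S100A4 (hg38, transcript at chr1:153543621-153545806, minus strand), S100A3 starts 3.5 kb, S100A6 9.8 kb, S100A2 20 kb, S100A16 67.3 kb and S100A13 81.7 kb away, while S100A10 and S100A11 are more than 1000 kb away. Within 2000 kb on either side, 52 other genes were measured. In CDH2 knockdown versus scramble their median difference was -0.16, with 37 of them below 0, beside 49% of all genes. Past threshold were 2 as lower and 2 as higher, beside 2.06% of all genes in either direction, and nothing is read from these counts. PBXIP1 (-1.08, adjusted p = 0.0386 in limma) and RAB13 (-0.80, adjusted p = 0.0223) fell, and HRNR (0.77, adjusted p = 0.0166) and IL6R (0.75, adjusted p = 0.0266) rose. These 4 calls were lost without CDH2 replicate 1, CDH2 replicate 2, Cx43 replicate 1 or Cx43 replicate 2, where 0 genes were past threshold. HRNR, or hornerin, is itself a protein of the S100 fused type, and IL6R is the interleukin-6 receptor. The nearest other genes, CHTOP, SNAPIN and ILF2, had differences of 0.03, -0.29 and -0.07, none past threshold. In Cx43 knockdown versus scramble the 52 neighbours had a median of -0.03 and none was past threshold, beside 1.18% of all genes.

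**Figure D4:**
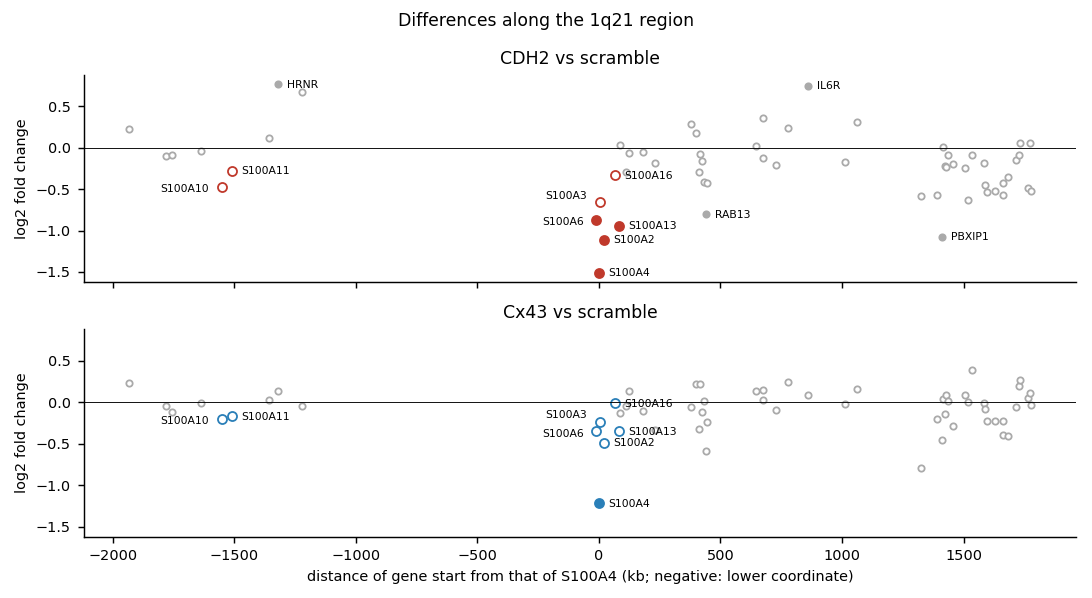
Log2 fold changes of the S100 genes (coloured) and their measured neighbours (grey) by distance of the gene start from that of S100A4 in kb, for CDH2 and Cx43 knockdown versus scramble. Filled points are past threshold. S100A4 and the 5 S100 genes nearest to it lie at -1.51 to -0.33 in CDH2 knockdown, and their 3 nearest other neighbours at -0.29 to 0.03.

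Of 116 measured genes in 6 lists related to S100 proteins, 2 passed the threshold for CDH2 knockdown versus scramble, beside 2.06% of all genes. For Cx43 knockdown versus scramble 1 passed, beside 1.18% of all genes. None passed between the knockdowns, where 0 of 12939 genes did. Nothing about the lists is read from these counts. Among the binding partners, 25 of 28 listed genes were measured. FGF1, the growth factor that is exported with S100A13, fell in Cx43 knockdown to 2.53 and 2.34, from 3.38, 3.47 and 3.31 in scramble, a difference of -0.95 (SE 0.12, adjusted p = 0.0375 in limma). Its levels in CDH2 knockdown were 3.10, 3.20 and 3.27 (difference -0.20, adjusted p = 0.213). The call for FGF1 was lost without CDH2 replicate 1 (adjusted p = 0.0642), CDH2 replicate 2 (0.0728), Cx43 replicate 1 (0.211), Cx43 replicate 2 (0.341) or scramble replicate 1 (0.183). FKBP8 had the largest difference of the list in CDH2 knockdown, -0.60 (adjusted p = 0.0199), short of the fold change required. The median of the list was -0.04 in CDH2 and 0.04 in Cx43 knockdown versus scramble.

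The best known partners of single members, picked for their role after the values had been seen, were not past threshold in either knockdown. MYH9, the non-muscle myosin heavy chain bound by S100A4, differed by -0.04 (adjusted p = 0.822) in CDH2 and by 0.04 (adjusted p = 0.887) in Cx43 knockdown versus scramble. ANXA2, the annexin bound by S100A10, differed by -0.31 (adjusted p = 0.0574) and -0.08 (adjusted p = 0.659). CACYBP, the partner of S100A6, differed by 0.03 and 0.11. ANXA1, bound by S100A11, differed by 0.43 and 0.18, and its 3 CDH2 knockdown libraries were spread from 4.07 to 5.05.

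Among receptors and signal adaptors for extracellular S100 proteins, 11 of 14 were measured and none was past threshold in any comparison. Their median was 0.17 in CDH2 and 0.03 in Cx43 knockdown versus scramble. Below 0 were 2 and 3 genes, beside 49% and 42.4% of all genes. ALCAM, an adhesion molecule that can bind S100 proteins, had 0.725 (SE 0.10, adjusted p = 0.0209) in CDH2 knockdown, just short of the fold change required, which it passed without CDH2 replicate 3 or scramble replicate 3 (0.745), and 0.36 (adjusted p = 0.167) in Cx43 knockdown. BSG (basigin) and SDC4 (syndecan 4), the most abundant of the list by level, had -0.28 and 0.15 in CDH2 and 0.03 and 0.01 in Cx43 knockdown, where both turned to below 0 after quantile normalization (-0.079 and -0.067).

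Of 10 genes of plasminogen activation, on which S100A10 acts, 8 were measured and none was past threshold in any comparison. Their median was -0.14 in CDH2 and -0.20 in Cx43 knockdown versus scramble. ENO1, an enolase that also binds plasminogen, and PLGRKT, a plasminogen receptor, had -0.31 (adjusted p = 0.0489) and -0.49 (adjusted p = 0.0308) in CDH2 knockdown, short of the fold change required. SERPINE2, which inhibits plasminogen activators, had 0.23 (adjusted p = 0.261) in CDH2 and -0.52 (adjusted p = 0.149) in Cx43 knockdown. Between the knockdowns it differed by 0.75 (adjusted p = 0.128), and was past threshold without the block (adjusted p = 0.00868) and without CDH2 replicate 3, scramble replicate 2 or scramble replicate 3 (adjusted p from 0.00925 to 0.0135).

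Among other EF-hand calcium-binding proteins 34 of 36 were measured and none was past threshold in any comparison. Their median was -0.12 in CDH2 and -0.04 in Cx43 knockdown versus scramble. CAPNS1, the small calpain subunit, had -0.60 (adjusted p = 0.0258) in CDH2 knockdown, and SPARC, a secreted matrix protein, had -0.39 (adjusted p = 0.0395) in CDH2 and -0.38 (adjusted p = 0.118) in Cx43 knockdown. The alpha-actinins ACTN1 and ACTN4 had 0.07 and -0.13 in CDH2 knockdown.

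Of 19 transcription factors described at S100 genes, 16 were measured, with a median of 0.14 in CDH2 and 0.13 in Cx43 knockdown versus scramble. NFATC2 rose in CDH2 knockdown to 4.42, 4.41 and 4.22 from 3.59, 3.45 and 3.72 in scramble, a difference of 0.77 (SE 0.12, adjusted p = 0.0223 in limma), and was 3.42 and 3.56 in Cx43 knockdown (-0.10, adjusted p = 0.719). NFAT5 had 0.90 in CDH2 knockdown, but its scramble libraries ranged from 5.85 to 6.63 and its adjusted p was 0.0724. It was past threshold without the replicate block (adjusted p = 0.0212) and without CDH2 replicate 3 or scramble replicate 3 (1.29, adjusted p = 0.000178), and had 0.584 without scramble replicate 2. JUN, a subunit of AP-1, had 0.65 (adjusted p = 0.132) in Cx43 knockdown. It was past threshold without the block (adjusted p = 0.0184) and without CDH2 replicate 3 or scramble replicate 3 (0.738, adjusted p = 0.00348), and ranged from 0.419 to 0.88 over single libraries left out. In the list of 1q21 neighbours 23 of 26 genes were measured, with medians of -0.07 and -0.05. RAB13, a small GTPase of vesicle traffic, fell in CDH2 knockdown to 4.64, 4.38 and 4.66 from 5.37, 5.45 and 5.26 (difference -0.80, SE 0.12, adjusted p = 0.0223). In Cx43 knockdown RAB13 was at 4.68 and 4.86 (-0.59, adjusted p = 0.104 in limma). There it was past threshold without the block (adjusted p = 0.00896), with only the 2 groups compared, and without CDH2 replicate 3 or scramble replicate 3 (-0.642, adjusted p = 0.006). Between the knockdowns it differed by -0.21 (adjusted p = 0.448). The calls for NFATC2 and RAB13 in CDH2 knockdown were lost without any of the libraries CDH2 replicate 1, CDH2 replicate 2, Cx43 replicate 1, Cx43 replicate 2 or scramble replicate 1 (adjusted p from 0.0567 to 0.129). By the fold change, these calls were also lost without scramble replicate 2 (0.656 and -0.725). They were also lost with the length and GC correction (0.61 and -0.62).

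**Figure D5:**
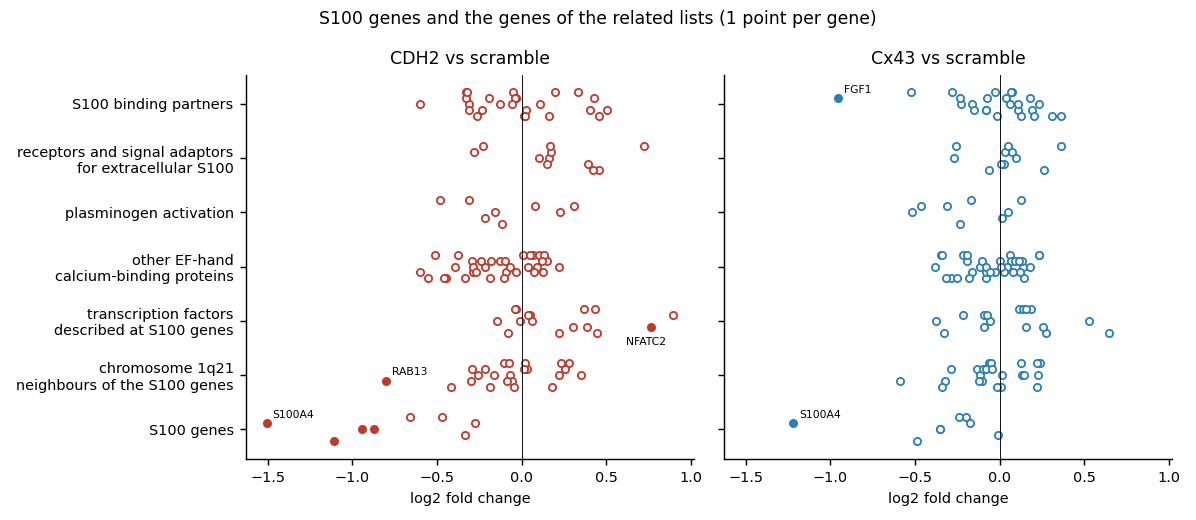
Log2 fold changes of the measured genes of the 6 related lists and of the S100 genes in CDH2 and Cx43 knockdown versus scramble, with 1 point per gene and filled points past threshold. Of the 116 related genes, NFATC2 and RAB13 passed the threshold for CDH2 knockdown and FGF1 for Cx43 knockdown. The 8 S100 genes lie below 0 in both, beside 49% and 42.4% of all genes. With the length and GC correction S100A11 in the first and S100A16 in the second turn to 0.02 and 0.06.

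Markers of the cell line were present in all libraries, with VIM at 9.62 to 9.81 and CD44 at 8.41 to 8.76. Of 12 epithelial markers 6 were measured, and their summed CPM was 706.4 to 829.1 in CDH2 knockdown, 878.1 to 891.3 in Cx43 knockdown and 888.1 to 1039.5 in scramble libraries. CLDN7, a tight junction protein, fell by 0.80 in CDH2 knockdown (adjusted p = 0.0198 in limma). The 6 measured of 12 mesenchymal markers summed to 1476.3 to 1740.4, 1411.6 to 1474.1 and 1493.7 to 1735.9 CPM in the same groups. Of 9 blood cell markers 3 were measured, at 25.9 to 28.2, 18.4 to 20.8 and 26.5 to 28.1 CPM in sum, and CSF1R fell in Cx43 knockdown by 0.90 (adjusted p = 0.0432), a call lost with 2 residual degrees of freedom. Neither call was kept without CDH2 replicate 2, Cx43 replicate 1 or Cx43 replicate 2, where 0 genes were past threshold in either knockdown. PECAM1, the only measured one of 5 endothelial markers, was at 2.2 to 4.7 CPM over all libraries. The part of the lower epithelial sum in the S100 differences of CDH2 knockdown was not tested.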

How the data were processed

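RNA-Seq values of 8 libraries were used as deposited by the authors, on the log2(CPM + 1) scale. Per the labels, reads were aligned with STAR 2.6.1 to hg38. According to the methods, the authors quantified genes in Partek Flow by expectation-maximization, left out a sample of low quality and took the logarithm of CPM + 1. They then corrected for a batch effect among the sequencing replicates by a shrunken log normal model and dropped genes with low values. Annotation and strand setting are not given in the sources used here. The base of the log was checked on the files, since the values of a library sum to 684411 to 727083 CPM when turned back. The files hold no counts, so the depth is unknown and the number of libraries sets the precision. Each holds 12939 genes and 1 line without a name, which was left out.

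Tests were made with limma 3.58.1 (lmFit and eBayes, two-sided) in R 4.3.3, in 1 model of all 8 libraries with group and replicate number as a block, since the authors removed a batch effect. The sources do not say that the replicate numbers are the batches. The replicate numbers come from the labels, and in libraries of 1 number the residuals about the group means add up to at most 1e-04 in any gene. The spread between replicates is therefore that left after the batch correction. Residual degrees of freedom were 3, and 2.84 came from limma's prior. After the batch correction the residuals vary in only 2 directions, so this count is 1 too high and the printed SE and p-values rest on too small a residual variance. An alternative counts 2. P-values were adjusted by Benjamini-Hochberg over all genes. Fold change minimums of 1.66 and 1.5 follow the methods, and 1.5 was also used between the knockdowns. A fold change on the log2(CPM + 1) scale understates the change of low genes. No filter or further pseudocount was applied. The script was tested on simulated data.

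The members and lists were chosen with earlier results of these data known. Named genes were all S100 genes with values and, in each related list, those past threshold, otherwise the most abundant 2, and those with the largest difference in either knockdown, together with the 5 genes most like S100A4. Results for some genes that this rule names are not reported here. Transcript lengths are of GENCODE v44 canonical transcripts, and promoter windows were read with Python 3.11.15. Figures were drawn with matplotlib 3.10.9. Alternatives were no block, quantile normalization, centring on the median, the 75% of genes with the highest mean, a pseudocount of 0.1, a mean-variance trend, only the groups compared, no minimum fold change and leaving out each library, and, chosen after seeing the data, a correction for length and GC content and the count of 2 residual degrees of freedom.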

Additional observations from a re-analysis of the deposited data

How the results depend on the processing

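With 3 or 2 libraries a group, a call was often lost when 1 library was left out, and no depth is known. In CDH2 knockdown versus scramble the differences did not change without Cx43 replicate 1 or Cx43 replicate 2 (S100A4 -1.507). There the calls were lost through the estimate of the spread, to which the Cx43 libraries contribute. The S100 differences kept their sign in all but 10 of 429 recomputed values, and the 17 named genes of the related lists in all but 19 of 912. Many of these values could not change sign. No block, the 75% of genes, the mean-variance trend and 2 residual degrees of freedom leave each difference as it was. The fits without CDH2 replicate 3 and without scramble replicate 3 are the same. Without the replicate block the S100 genes past threshold numbered 4 for CDH2 and 1 for Cx43 knockdown against scramble, as with it, but 2 between the knockdowns (0 with it), and the related genes moved to 3 in Cx43 knockdown and 6 between the knockdowns. The 75% of genes with the highest mean left 0 S100 and 0 related genes in Cx43 knockdown. With only the groups compared there were 0 S100 and 0 related genes in CDH2 knockdown, 4 related genes in Cx43 knockdown, and 2 S100 and 8 related genes between the knockdowns. No minimum fold change gave 23 related genes in CDH2 knockdown. The length and GC correction gave 2 S100 and 0 related genes in CDH2 knockdown, and without the block also 2 related genes in Cx43 knockdown and 5 between the knockdowns. With 2 residual degrees of freedom the S100 and related genes past threshold were as many as with 3, while those among all genes went from 267 to 231 in CDH2 and from 153 to 82 in Cx43 knockdown. FGF1 then had an adjusted p of just under 0.05. The cause was not tested.

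Leaving out 1 library gave 0 to 5 S100 and 0 to 5 related genes in CDH2 knockdown, 0 to 1 and 0 to 4 in Cx43 knockdown, and 0 to 2 and 0 to 9 between the knockdowns.

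Values that changed sign, with the range over single libraries left out, were as follows. In CDH2 knockdown versus scramble S100A11 had 0.018 with the length and GC correction. In Cx43 knockdown S100A16 had 0.056 with that correction and -0.097 to 0.156 over single libraries, BSG -0.079 after quantile normalization and -0.023 to 0.083, NFAT5 0.107 with only the 2 groups and -0.481 to 0.107, and NFATC2 -0.231 to 0.014. SDC4 had -0.003 centred, -0.009 with the correction, -0.021 with only the 2 groups, -0.067 after quantile normalization and -0.021 to 0.078. Between the knockdowns S100A11 had 0.138 with the correction and -0.158 to 0.030, S100A4 -0.578 to 0.003, ACTN4 -0.086 to 0.210, and SPARC 0.006 centred, 0.014 after quantile normalization and -0.110 to 0.092.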
